A study of Mus musculus with 10 samples.

Results

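Transcript levels were compared between 3T3-L1 preadipocytes that had received an siRNA against LSD1 and cells that had received a scrambled siRNA, 48 h after transfection. The comparison used 6 of the 10 arrays of the series, taken from the siRNA and hour that each title gives: 3 labelled siLSD1 48h (siLsd1 below) and 3 labelled siControl 48h (siC below). The 6 samples were of passage 21, and each siRNA was given at 60 nM with Metafectene Pro and left on the cells with no change of medium. 3T3-L1 is an established mouse fibroblast line whose cells turn into fat cells when induced, and no induction is given in the labels. The other 4 arrays, 2 of each siRNA, were taken at 24 h from cells of passage 19 and served to estimate the spread and to set the changes at 48 h beside those at 24 h. The labels call the replicates biological without naming what separated them, so p-values speak only for the spread among these samples of 1 cell line.

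LSD1, encoded by Kdm1a, is a flavin-dependent enzyme that removes methyl groups from lysine 4 of histone H3, and in some settings from other lysines. It works mostly as a corepressor in the CoREST complex, with the histone deacetylases Hdac1 and Hdac2, and it has also been found with the NuRD remodelling complex. Loss of LSD1 has been linked in other cells to transcripts of endogenous repeats, double-stranded RNA and interferon, and in preadipocytes the enzyme has been studied for its part in fat cell formation. Double-stranded RNA, which an siRNA also is, can itself be read by the receptors of the interferon system, and both groups received an siRNA.

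Of 18193 genes with a probe set, 13644 were tested after the dimmest 25% were left out, and intensities are linear units of the deposited table. At a limma adjusted p under 0.05, 1728 genes were called (12.7% of those tested), 818 higher (6.00%) and 910 lower (6.67%) with siLsd1. With the arrays centred on their medians, the split moved to 1043 higher and 756 lower, from 47.3% to 58.0% higher. The count depended on single arrays. It was 489, 382 and 560 without siC 48 h replicates 1, 2 and 3, and 2473 without siLsd1 48 h replicate 3. Without either siC 24 h array it was 1020 and 1013, and without either siLsd1 24 h array 876 and 878. With the 48 h arrays alone it was 250, 175 higher and 75 lower. Gene lists are given as members tested of members listed, the rest being dim or without a probe set, with the median log2 change of those tested, which was -0.02 over all genes. Their counts of members higher and lower are to be read beside the 6.00% and 6.67% over all genes. The 2 groups of 3 allow no exact permutation p under 0.1 for a single gene, so the tests rest on the model fitted across genes. A call is described as held below where it stayed under 0.05 with each of the 10 arrays left out in turn. That was so for 339 genes (2.48%), 236 higher (1.73%) and 103 lower (0.755%). The fit of the 48 h arrays alone does not enter that rule. Median intensities of the arrays lay between 35.6 and 40.6.

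**Figure D1:**
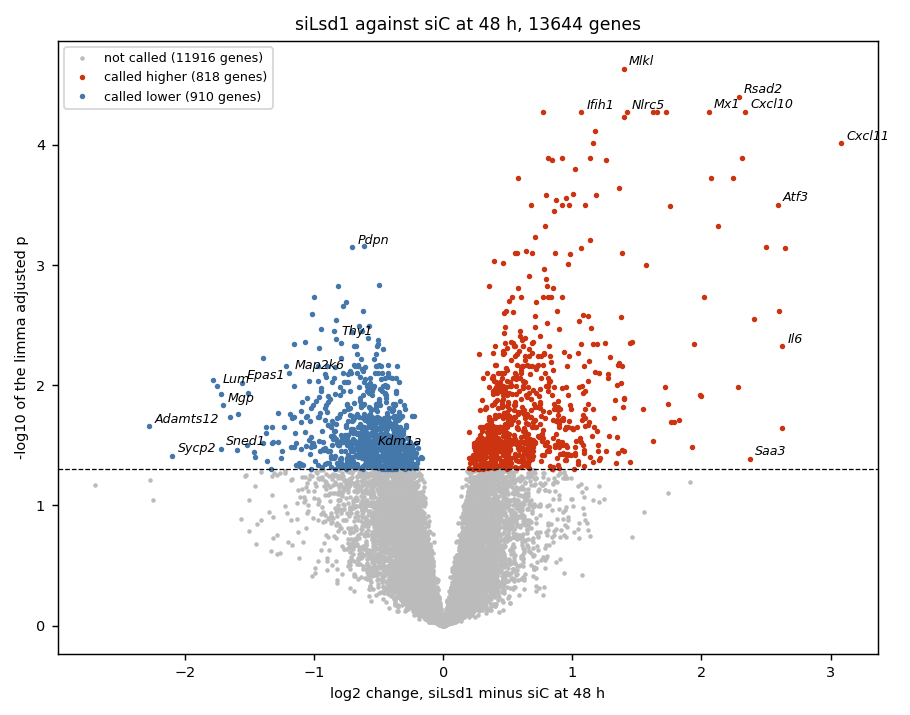
Log2 change of siLsd1 against siC at 48 h (horizontal axis) and -log10 of the limma adjusted p (vertical axis) for the 13644 genes tested, with the 818 genes called higher in red, the 910 called lower in blue and the dashed line at an adjusted p of 0.05. The smallest p-values belong to genes that were higher, Mlkl, Rsad2, Mx1, Ifih1, Nlrc5 and Cxcl10 among them.

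Of the siLsd1 arrays, replicate 3 differed most. Across 6943 genes of the brighter part of the table, the SD of the log2 difference between siLsd1 replicates 1 and 2 was 0.0892, against 0.441 and 0.439 between either of them and replicate 3. The arrays nearest to replicate 3 were those of siLsd1 at 24 h (0.361 and 0.353), and what sets it apart was not tested. Pairs of siC arrays differed with an SD of 0.124 to 0.205. Of the 818 genes called higher, 617 had their highest siLsd1 reading on replicate 3, and of the 910 called lower, 799 had their lowest there. Among the genes called, 1666 were also called in the same direction without replicate 3, where 1114 genes were higher (8.16%) and 1359 lower (9.96%). For this reason the reading on each array is given below for many genes, in the order of replicates 1, 2 and 3 with siC first. The log2 change without siLsd1 replicate 3 is given for some genes only. Where it is not given, the change may still have depended on that array.

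The targeted gene, Kdm1a (Entrez gene 99982), read 1596, 1787 and 1775 on the siC arrays and 1352, 1336 and 897 on the siLsd1 arrays. It was 1.46-fold lower (log2 -0.55 ± 0.14 SE, adjusted p = 0.0338). The groups did not overlap, as was so for all 1728 genes called and for 37.5% of all genes tested. The lowest reading was on replicate 3. Without that array the log2 change was -0.35 (adjusted p = 0.00277), and the call was lost without any 1 siC 48 h or 24 h array, adjusted p up to 0.115. The readout is transcript; the level of the protein is not part of these data. On a list of LSD1 itself, its relative Kdm1b and its partners, 16 genes were tested (of 19 listed, median -0.06). Of these 0 rose and 2 fell, the targeted Kdm1a and Zeb1, a zinc finger repressor that can recruit LSD1. Zeb1 read 1161, 1259 and 1288 with siC against 894, 938 and 513 with siLsd1 (log2 -0.71 ± 0.19 SE, adjusted p = 0.0397), its call was lost without any 1 siC 48 h or 24 h array, adjusted p up to 0.12 (its 2 further probe sets above the dim level had log2 -0.49 and -0.71).

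Kdm1b, the only close relative of Kdm1a, read 130.2, 175 and 209.8 with siC and 236, 199.6 and 157 with siLsd1, ranges that overlapped (log2 0.21 ± 0.20 SE, adjusted p = 0.508). Rcor1, the CoREST scaffold that holds LSD1 on nucleosomes, read 609, 694 and 698 against 777, 741 and 787 (log2 0.21, adjusted p = 0.108). Among 11 (of 11 listed, median 0.05) NuRD subunits tested, Gatad2a rose 1.31-fold (lost without any 1 siC 48 h or siLsd1 24 h array, adjusted p up to 0.0911) and Gatad2b fell 1.26-fold (lost without any 1 siC 48 h or 24 h array, or siLsd1 48 h replicate 2, adjusted p up to 0.128), while the other probe sets above the dim level had log2 0.46, 0.00, 0.08 and -0.07 for Gatad2a and -0.03, -0.09 and 0.11 for Gatad2b. These are the interchangeable p66 subunits of that complex. Among 11 (of 12 listed, median -0.04) genes of H3K9 methylation tested, Setdb2, a SET-domain protein that interferon is known to induce, read 250.1, 236 and 266 with siC and 597, 551 and 553 with siLsd1. It was 2.26-fold higher (log2 1.18 ± 0.08 SE, adjusted p = 7.64e-05), the 3 siLsd1 arrays were level with one another, and the call was held. Setdb1, which silences endogenous retroviruses through H3K9 methylation, had a log2 change of -0.04 ± 0.08 SE (adjusted p = 0.769), and Ehmt1, a writer of H3K9 mono- and dimethylation, was 1.33-fold lower (adjusted p = 0.0378, lost without any 1 siC 48 h or 24 h array, adjusted p up to 0.119).

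**Figure D2:**
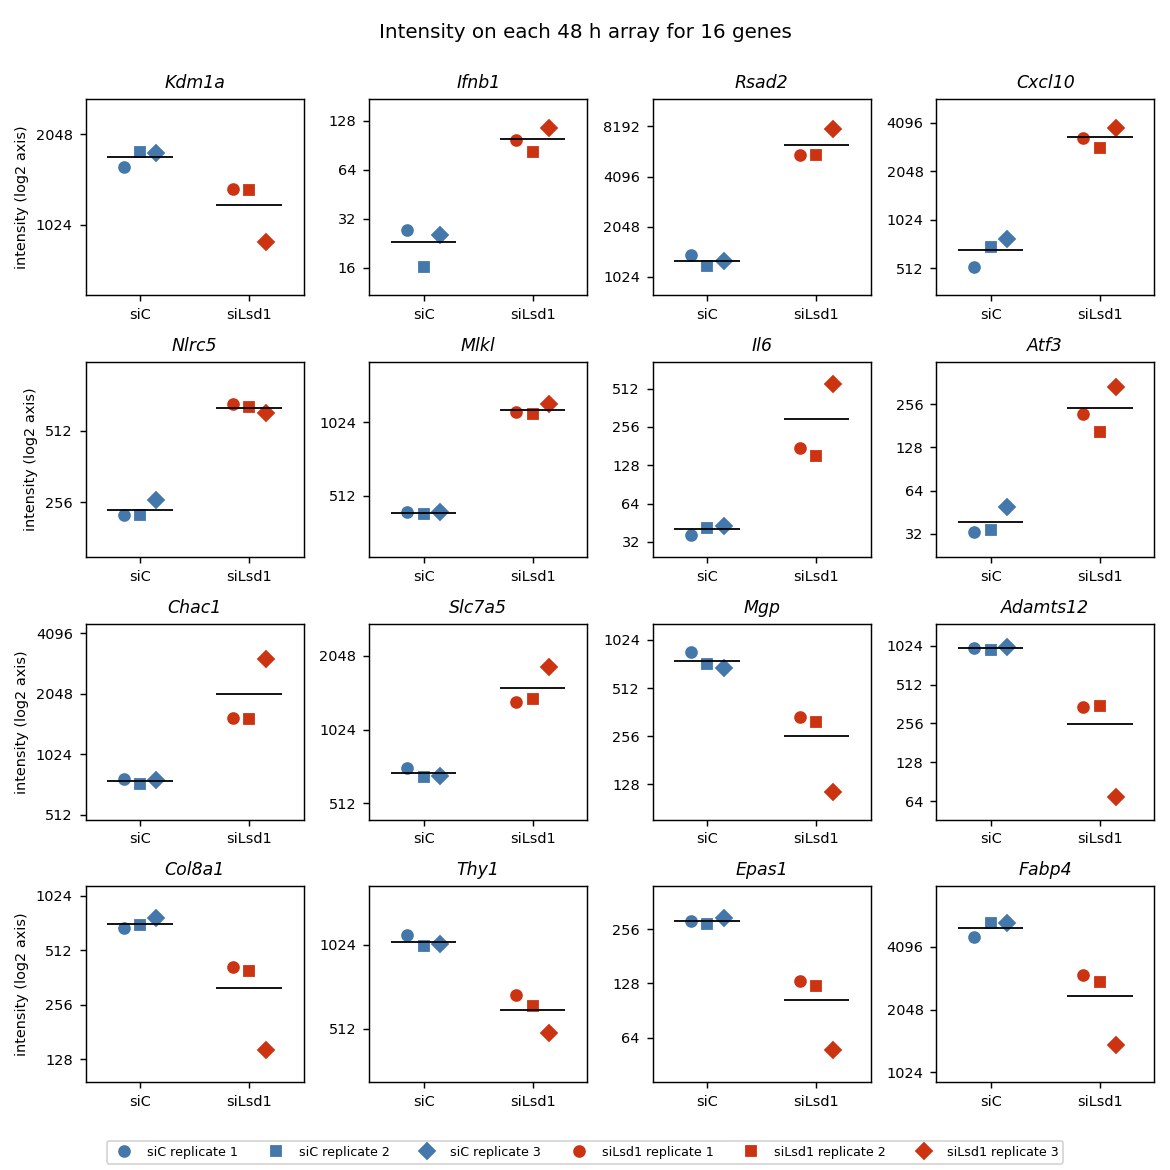
Intensity (vertical axes, log2 scale) of 16 genes on each 48 h array, with circles, squares and diamonds for replicates 1, 2 and 3, blue for siC, red for siLsd1 and a bar at each group's mean of linear intensities. Replicate 3 of siLsd1 is the array farthest from siC for Kdm1a, Il6, Chac1, Adamts12, Col8a1 and Fabp4, while for Nlrc5 and Mlkl the 3 siLsd1 arrays lie together.

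Type I interferon is made by cells that sense foreign nucleic acid, and it acts through its receptor on the same or neighbouring cells to raise a set of antiviral genes. Among the ligands, 6 of 19 listed were tested, 4 rose and 0 fell. The median log2 change was 1.70 as deposited. It was 0.35 with readings under the dim level of 18.4 raised to that level, an alternative chosen after seeing the data. The dim filter used the mean of all arrays, so siLsd1 readings could carry a ligand past it. Ifna2, Ifna4 and Ifna5 were under that level on every siC 48 h array, while Ifna9, Ifna11 and Ifng were left out as dim. The count and median of this list therefore depend in part on the filter. Ifnb1, interferon beta, read 27.1, 16.2 and 25.5 with siC and 97.5, 82.3 and 116 with siLsd1. The rise was 4.37-fold (log2 2.13 ± 0.21 SE, adjusted p = 0.000474), and it was 4.19-fold with the raised level. Ifna4 read 12.3, 16.5 and 14.9 against 82, 60.9 and 74.3, 4.97-fold higher (adjusted p = 0.000129) and 3.90-fold with the raised level. Ifna2 and Ifna5 were near the bottom of the scale on the siC arrays, at 4.12, 6.66 and 13 and at 8.1, 5.36 and 7.09. For Ifna2 the 4-fold rise became 1.54-fold with the raised level (adjusted p = 0.0453) and its call was lost without siC 48 h replicate 2, adjusted p 0.0523, while for Ifna5 the call was lost with the raised level (log2 0.09, adjusted p = 0.741).

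Receptors and sensors of foreign RNA come next. Of 14 (of 16 listed, median 0.29) sensors and adaptors tested, 7 rose and 0 fell (6.00% and 6.67% over all genes), and 5 calls were held. Ifih1 encodes MDA5, the cytoplasmic receptor of long double-stranded RNA. It read 818, 719.6 and 779 with siC and 1638, 1653 and 1563 with siLsd1, a 2.1-fold rise (log2 1.07 ± 0.07 SE, adjusted p = 5.34e-05). Tlr3, the endosomal receptor of double-stranded RNA, read 801, 764 and 795 against 1639, 1748 and 1425 (2.03-fold, adjusted p = 0.000158). Zbp1, a sensor of left-handed nucleic acid that can start necroptosis, read 761, 676 and 682 against 1711, 1741 and 1374 (2.27-fold, adjusted p = 0.000259). In Ifih1, Tlr3 and Zbp1 replicate 3 was the lowest of the siLsd1 arrays, unlike in most called genes. The adaptors Myd88 (1.45-fold) and Sting1 (1.37-fold) rose too, with held calls. Without siLsd1 replicate 3, 10 of the 14 were called higher.

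Downstream of the receptor, 3 of 10 (of 10 listed, median 0.11) tested receptor chains, kinases and feedback genes rose and 0 fell. Usp18, the brake that unseats the kinase from the receptor, read 3742, 3671 and 3846 with siC and 6445, 6348 and 7913 with siLsd1 (1.83-fold, log2 0.87 ± 0.08 SE, adjusted p = 0.000287). Jak2 was 1.52-fold higher (adjusted p = 0.00421), and Socs1, a kinase inhibitor, 1.74-fold (adjusted p = 0.0316, lost without any 1 siLsd1 24 h array, or siC 48 h replicates 2 or 3, or siLsd1 48 h replicate 2, adjusted p up to 0.105). Of 11 (of 14 listed, median 0.22) transcription factors tested, Irf1, Irf2 and Irf7 rose and 0 fell. Irf7, the factor that drives the interferon alpha genes, read 2423, 2002 and 2032 against 3027, 3189 and 2829.6 (1.4-fold, adjusted p = 0.00918). Irf1 read 1965, 1870.2 and 1871 against 2702, 2841 and 2830.2 (1.47-fold, adjusted p = 0.000797). The calls of Irf1 and Irf7 were held, and that of Irf2 (1.19-fold) was lost without any 1 siC 48 h or 24 h array, or siLsd1 48 h replicate 2, adjusted p up to 0.101.

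Antiviral effectors formed the longest of the interferon lists. Of 35 (of 40 listed, median 0.40) genes tested, 18 rose and 1 fell (Ifi27, log2 -0.74). Of these 19 calls 17 were held, against 339 of the 1728 calls over all genes. Rsad2 encodes viperin, which makes a chain-ending nucleotide. It read 1388, 1193 and 1269 with siC and 5537, 5552 and 7961 with siLsd1, a 4.88-fold rise (log2 2.29 ± 0.13 SE, adjusted p = 3.99e-05). Mx1, a dynamin-like GTPase that blocks influenza virus, read 526, 465 and 536 against 1906, 1905 and 2598 (4.16-fold, adjusted p = 5.33e-05). Ifit2, which binds foreign RNA, read 1247, 1279.5 and 1481 against 3781, 3971 and 4917 (3.15-fold, adjusted p = 5.34e-05). For Rsad2, Mx1 and Ifit2 siLsd1 replicates 1 and 2 nearly coincided and replicate 3 was higher. Ifit1bl1 was 4.07-fold higher, and Oas1a, an activator of RNase L, 1.7-fold, with 3 near-level siLsd1 readings of 5189, 5315 and 5520.2. Oasl1 rose 3.34-fold from readings under the dim level and 1.85-fold with those readings raised to it. Among members that were not called, Ifitm3 and Adar had log2 changes of 0.03 and 0.04. Ifit genes and Oas genes are families of close copies, and how probe sets divide signal among such copies was not tested.

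Interferon-induced GTPases, which attack the vacuoles of intracellular parasites, had 8 of 10 (of 17 listed, median 0.58) tested members higher and 0 lower, with 5 calls held and the lowest count, 5, without siC 48 h replicate 2. Irgm2 read 2344, 2266 and 2569 with siC and 4168, 4192 and 4195 with siLsd1 (1.75-fold, log2 0.81 ± 0.06 SE, adjusted p = 0.000129). Igtp read 3761, 3265 and 3303 against 5388, 5489 and 5658 (1.6-fold). Both genes had siLsd1 arrays within a narrow range, well clear of siC. Gbp2, a guanylate-binding protein, read 1531, 1519.8 and 1493 against 2568, 2536 and 1861; here replicate 3 was the nearest to siC, and the 1.52-fold rise (adjusted p = 0.0131) was lost without siC 48 h replicate 2, adjusted p 0.0536. Without siLsd1 replicate 3 all 10 tested members were called higher.

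Presentation of peptides on MHC class I had 13 of 14 (of 19 listed, median 0.67) tested members higher and 0 lower, B2m (log2 0.05) being the member that was not called, and 9 calls were held. Nlrc5, the activator of the class I genes, read 226, 227 and 261 with siC and 664, 639 and 607 with siLsd1. It was 2.68-fold higher (log2 1.42 ± 0.10 SE, adjusted p = 5.34e-05), and replicate 3 was the lowest siLsd1 array. Psmb9, an immunoproteasome subunit that replaces a standard one, read 794, 632 and 637 against 1802, 1785 and 1824 (2.64-fold, adjusted p = 5.83e-05). Psmb8, another such subunit, was 1.81-fold higher, the peptide loader Tapbpl 1.95-fold and the peptide pump Tap1 1.73-fold, with held calls. The medians of this list on siLsd1 replicates 1, 2 and 3 were 0.66, 0.70 and 0.54, against siC.

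The interferon-stimulated response element, searched on both strands as GAAA, any 2 bases and GAAA, is the sequence read by interferon-activated factors. It was looked for in the RefSeq promoter windows of GRCm38.p6, 250 bases before to 50 after each gene's start. It stood in 3.99% of the 27025 genes of that table and in 3.60% of the 10959 tested genes with a window. In the 8 interferon lists it stood in 21 of 44 members called higher (47.7%) and in 12 of 39 not called higher (30.8%). A match says that these letters are present, not that a factor was bound. The windows of 3 strongly changed members are shown 5' to 3' on the gene's strand with the matched letters in capitals, at chr12:26456403-26456702 (minus strand), chr2:62646206-62646505 (minus strand) and chr5:92348840-92349139 (minus strand). The match begins 120 bases before the start of Rsad2, 213 before that of Cxcl10 and 32 after that of Ifih1.
Rsad2 promoter: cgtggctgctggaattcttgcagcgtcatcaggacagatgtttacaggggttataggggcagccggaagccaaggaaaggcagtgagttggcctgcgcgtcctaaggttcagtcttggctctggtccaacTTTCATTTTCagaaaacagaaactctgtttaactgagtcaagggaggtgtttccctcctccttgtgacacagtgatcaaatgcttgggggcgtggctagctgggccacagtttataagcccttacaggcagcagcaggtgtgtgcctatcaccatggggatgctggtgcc
Ifih1 promoter: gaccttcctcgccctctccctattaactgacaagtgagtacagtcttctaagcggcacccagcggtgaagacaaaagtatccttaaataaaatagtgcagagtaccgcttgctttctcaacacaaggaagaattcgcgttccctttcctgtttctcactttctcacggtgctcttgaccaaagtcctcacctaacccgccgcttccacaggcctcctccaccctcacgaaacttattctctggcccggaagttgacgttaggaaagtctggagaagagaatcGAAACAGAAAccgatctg
Cxcl10 promoter: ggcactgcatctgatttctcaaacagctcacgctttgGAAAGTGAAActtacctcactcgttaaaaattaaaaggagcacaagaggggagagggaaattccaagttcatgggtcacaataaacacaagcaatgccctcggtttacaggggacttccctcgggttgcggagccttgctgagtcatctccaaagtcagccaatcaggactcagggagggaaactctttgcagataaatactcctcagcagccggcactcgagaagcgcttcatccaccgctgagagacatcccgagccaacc

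Chemokines attract immune cells to a tissue. The 3 interferon-induced ones, ligands of the receptor Cxcr3, were all tested, and 3 rose with held calls. Cxcl11 read 69.5, 83.4 and 93.4 with siC and 583, 527 and 1068 with siLsd1, the largest called rise (8.46-fold, log2 3.08 ± 0.23 SE, adjusted p = 9.68e-05). Cxcl10 read 521, 694 and 774 against 3299.6, 2862 and 3834 (5.06-fold, adjusted p = 5.33e-05), and Cxcl9 read 20.6, 21.8 and 23.4 against 116, 93.9 and 237 (6.26-fold). In Cxcl9, Cxcl10 and Cxcl11 replicate 3 was the highest array. Of 13 (of 18 listed, median 0.84) other chemokines tested, 7 rose and 0 fell, 4 with held calls and 4 also being the lowest count, without siC 48 h replicate 1. Ccl2, a recruiter of monocytes, read 2343, 2280.0 and 2144 against 4247, 4138 and 4913 (1.96-fold, adjusted p = 0.000315). Cxcl1, a recruiter of neutrophils, was 2.06-fold higher. Ccl8 read 222, 236 and 239 against 571, 541 and 372, lower on replicate 3 than on the other siLsd1 arrays, while Ccl5 read 1100.4, 958 and 967 against 1529, 1575 and 3512, far higher there. The 2.02-fold rise of Ccl5 (adjusted p = 0.0384) was 0.62 on the log2 scale without replicate 3, and its call was lost without any 1 siC 48 h or 24 h array, adjusted p up to 0.119.

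NF-kB is the factor that tumour necrosis factor and sensors of infection release from its inhibitors. Among 14 (of 16 listed, median 0.11) genes of the pathway tested, 5 rose and 0 fell, but only the call of Tnfaip3 was held, and without siC 48 h replicate 1 the count was 1. Tnfaip3, which ends the signal, read 143, 148 and 148 with siC and 264, 239 and 312 with siLsd1 (1.84-fold, log2 0.88 ± 0.11 SE, adjusted p = 0.00242). The subunit Relb was 1.41-fold higher (lost without any 1 siC 48 h array, adjusted p up to 0.0898) and the subunit Rela 1.29-fold (lost without siC 48 h replicates 1 or 2, adjusted p up to 0.0838). The inhibitor Nfkbie was 1.41-fold higher (lost without any 1 siC 48 h or 24 h array, or siLsd1 48 h replicate 1, adjusted p up to 0.1) and Nfkbia 1.23-fold (lost without any 1 siC 48 h or 24 h array, adjusted p up to 0.121). Of 15 (of 21 listed, median 0.20) tested genes of the IL-6 family and the acute phase, 3 rose and 0 fell. Il6 read 36.2, 41 and 42.9 against 176, 152 and 558, 6.17-fold higher (log2 2.62 ± 0.39 SE, adjusted p = 0.00473); without replicate 3 the log2 change was 2.03, and the call was held. Osmr, the receptor of oncostatin M, was 1.86-fold higher with a held call. Saa3, an acute phase apolipoprotein, read 19.3, 41.3 and 45.4 against 117, 71.4 and 605, a 5.19-fold rise (adjusted p = 0.0408) with replicate 3 far above the others. The log2 change of Saa3 was 2.37 with that array and 1.47 without it, and its call was lost without any 1 siC 48 h or 24 h array, adjusted p up to 0.127.

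Of 14 (of 21 listed, median 0.29) other inflammatory mediators tested, 5 rose and 0 fell, 3 with held calls. Ptgs2, the inducible cyclooxygenase that starts prostaglandin synthesis, read 226, 253 and 278 with siC and 535, 479 and 835 with siLsd1 (2.38-fold, log2 1.25 ± 0.18 SE, adjusted p = 0.00448). Il13ra1, a receptor chain for interleukin 13, was 2.23-fold higher and Csf1, the growth factor of macrophages, 1.33-fold. Il15, a survival factor of lymphocytes, was 2.18-fold higher (lost without any 1 siC 48 h array, adjusted p up to 0.0666) and Tslp, an alarm cytokine, 2.03-fold (lost without any 1 siC 48 h or 24 h array, adjusted p up to 0.0852). The NF-kB site was searched on both strands as GGGA, any base and TTTCC. It stood in 0.466% of the 27025 genes with a promoter window and in 0.557% of the 10959 tested genes with one. In the 4 inflammatory lists it stood in 4 of 12 members called higher and in 1 of 24 not called higher. The window of Il6 (chr5:30012864-30013163, plus strand, GRCm38.p6, RefSeq) is shown with the match, which begins 44 bases before the start, in capitals.
Il6 promoter: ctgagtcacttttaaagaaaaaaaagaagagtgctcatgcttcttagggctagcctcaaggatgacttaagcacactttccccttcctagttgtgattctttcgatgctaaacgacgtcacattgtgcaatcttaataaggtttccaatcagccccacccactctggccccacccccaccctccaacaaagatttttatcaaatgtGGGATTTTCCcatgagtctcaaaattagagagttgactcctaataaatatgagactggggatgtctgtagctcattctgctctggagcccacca

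Serpins are inhibitors of proteases, and those of the Serpinb group act inside cells, Serpinb9 and its relatives against granzyme. Among 13 (of 17 listed, median 0.79) members tested, 5 rose and 1 fell, the count was 2 without siC 48 h replicate 1, and the medians of the list on siLsd1 replicates 1, 2 and 3 were 0.70, 0.52 and 1.42. Serpinb2 read 16.4, 17.6 and 21.3 with siC and 76.4, 67 and 180.3 with siLsd1 (5.32-fold, log2 2.41 ± 0.32 SE, adjusted p = 0.00279; 5.03-fold with readings under the dim level raised to it). Serpinb9b read 89.8, 86.4 and 85.6 against 210.2, 199 and 706, and Serpinb9g read 15.4, 9.94 and 18.6 against 54.2, 43.2 and 283. In Serpinb9b and Serpinb9g the reading on replicate 3 was several times those on the other siLsd1 arrays. Their rises were 3.54-fold and 6.15-fold (4.72-fold for Serpinb9g with the raised level), the log2 changes without replicate 3 were 1.23 and 1.77, and the calls were lost without any 1 siC 48 h array, adjusted p up to 0.0736 for Serpinb9b and up to 0.0893 for Serpinb9g. Serpinb9 itself read 753, 752 and 802 against 1329.5, 1292 and 2343 (2.07-fold, adjusted p = 0.0103), with a held call. The members of this group are near copies of one another, and how their probe sets share signal was not tested. Serping1, the inhibitor of the first complement enzyme, was 2.17-fold higher and its call was lost without siC 48 h replicates 1 or 2, adjusted p up to 0.0567.

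Genes of cell death had 6 of 17 (of 21 listed, median 0.35) tested members higher and 0 lower, 2 with held calls, and the count fell to 2 without siC 48 h replicate 2. Mlkl, which makes the membrane pore of necroptosis, read 439, 429 and 440.0 with siC and 1128, 1105 and 1212 with siLsd1. The 2.63-fold rise (log2 1.40 ± 0.07 SE, adjusted p = 2.32e-05) had the smallest p of all genes tested, and the readings within each group were close. Casp4, also called caspase 11, the receptor of cytoplasmic lipopolysaccharide, read 594, 596 and 576 against 970.2, 889 and 1339.8 (1.78-fold, adjusted p = 0.00643). Bid, which links death receptors to mitochondria, was 2.05-fold higher, and Tnfrsf12a, the receptor of TWEAK, 2.19-fold, each highest on replicate 3, at 1255 and 2840.3. The call of Bid was lost without any 1 siC 48 h array, adjusted p up to 0.0835, and that of Tnfrsf12a was lost without any 1 siC 48 h or 24 h array, adjusted p up to 0.112. Ripk3, the kinase that acts on Mlkl, had a log2 change of 0.18 (adjusted p = 0.575), and Fas of -0.01.

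The integrated stress response couples stalled translation to the factor Atf4, which raises genes for amino acid supply. Of 18 (of 19 listed, median 0.48) genes tested, 10 rose and 0 fell (6.00% and 6.67% over all genes), 4 with held calls; the lowest count was 4, without siC 48 h replicate 2. At 24 h, where 5.39% of genes were called (2.60% higher and 2.79% lower), 1 was called higher. Atf3, a repressor induced by the response, read 33, 34.3 and 49.6 with siC and 219.7, 164 and 339 with siLsd1 (6.02-fold, log2 2.59 ± 0.24 SE, adjusted p = 0.000315). Chac1, which degrades glutathione, read 767, 724 and 764 against 1555, 1530.0 and 3037 (2.57-fold, adjusted p = 0.00654). Trib3, a pseudokinase that restrains Atf4, read 1723, 1708 and 1799 against 2848, 2748 and 3673 (1.76-fold, adjusted p = 0.00185). The calls of Atf3, Chac1 and Trib3 were held, and replicate 3 was the highest array in each of them. Ppp1r15a, the phosphatase subunit that ends the response, was 1.95-fold higher (lost without siC 48 h replicate 2, adjusted p 0.056) and Ddit4, an inhibitor of mTOR, 1.86-fold (lost without any 1 siC 48 h array, adjusted p up to 0.0636). Atf4 itself had a log2 change of 0.44 ± 0.15 SE (adjusted p = 0.0726).

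Enzymes and transporters of amino acid supply were tested next. Aminoacyl-tRNA synthetases, which charge tRNAs, had 10 of 18 (of 19 listed, median 0.46) tested members higher and 0 lower, with 3 held calls, 3 being also the count without siC 48 h replicate 1. Wars, the tryptophan enzyme, which interferon also induces, read 501, 482 and 459 with siC and 884, 836 and 1546 with siLsd1 (2.18-fold, log2 1.12 ± 0.19 SE, adjusted p = 0.00918). Aars, the alanine enzyme, read 1875, 1705 and 1782 against 2482, 2552 and 3249 (1.53-fold, adjusted p = 0.00691). Iars, the isoleucine enzyme, was 1.48-fold higher. Transporters and enzymes of serine and one-carbon supply had 10 of 19 (of 20 listed, median 0.62) tested members higher and 0 lower, with 4 held calls and a count of 4 without siC 48 h replicate 2. At 24 h 0 members of either list were called, and the test of the difference between times, given below, called 0 of them. Slc7a5, the carrier of large neutral amino acids, read 713, 659 and 665 against 1323, 1362 and 1845 (2.2-fold, log2 1.14 ± 0.12 SE, adjusted p = 0.000615), with a held call. Slc7a1, the arginine carrier, was 1.75-fold higher with a held call (log2 0.84 by its other probe set above the dim level). Shmt2 and Mthfd1l, mitochondrial enzymes of one-carbon supply, read 546, 516 and 1198 and 387, 379 and 803 on the siLsd1 arrays, far higher on replicate 3, and the call of Shmt2 was lost without any 1 siC 48 h or 24 h array, adjusted p up to 0.109, that of Mthfd1l up to 0.101 without the same arrays. The 2 further Shmt2 probe sets above the dim level had log2 1.06 and 0.88. The medians of the transport and serine list on siLsd1 replicates 1, 2 and 3 were 0.44, 0.35 and 1.13.

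The amino acid response element, searched on both strands as TGATG, any base and AA, is the sequence bound by Atf4 with C/EBP partners. It stood in 4.51% of the 27025 genes with a promoter window and in 2.94% of the 10959 tested genes with one. In the 3 lists of amino acid stress it stood in 9 of 25 members called higher (36%) and in 5 of 17 not called higher (29.4%). The windows of Atf3 (chr1:191183284-191183583, minus strand), Chac1 (chr2:119350992-119351291, plus strand) and Trib3 (chr2:152344011-152344310, minus strand), 3 of the 4 members of the stress response list with a match and a held call, are shown with it in capitals (GRCm38.p6, RefSeq); Asns, asparagine synthetase, is the fourth. The match begins 110 bases before the start of Atf3, 193 before that of Chac1 and 14 after that of Trib3.
Atf3 promoter: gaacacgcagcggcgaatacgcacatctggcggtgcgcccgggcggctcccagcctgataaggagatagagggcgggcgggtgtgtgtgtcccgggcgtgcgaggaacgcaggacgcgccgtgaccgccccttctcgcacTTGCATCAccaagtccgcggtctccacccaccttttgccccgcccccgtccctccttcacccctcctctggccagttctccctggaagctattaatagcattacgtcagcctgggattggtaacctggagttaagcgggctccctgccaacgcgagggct
Chac1 promoter: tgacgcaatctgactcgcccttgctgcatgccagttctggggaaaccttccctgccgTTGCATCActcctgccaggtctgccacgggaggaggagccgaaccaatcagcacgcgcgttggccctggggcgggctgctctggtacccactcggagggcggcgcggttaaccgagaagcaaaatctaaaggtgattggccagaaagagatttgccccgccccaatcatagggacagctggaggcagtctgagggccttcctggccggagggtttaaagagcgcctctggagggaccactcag
Trib3 promoter: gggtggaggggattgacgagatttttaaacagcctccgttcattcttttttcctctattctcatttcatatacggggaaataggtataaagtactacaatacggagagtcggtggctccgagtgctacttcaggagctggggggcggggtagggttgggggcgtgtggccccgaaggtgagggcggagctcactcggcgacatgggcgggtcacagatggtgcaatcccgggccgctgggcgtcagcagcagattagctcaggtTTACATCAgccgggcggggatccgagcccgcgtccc

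Chaperones and sensors of the endoplasmic reticulum, which answer unfolded protein, went the other way in the members that were called: of 22 (of 22 listed, median -0.10) tested, 1 rose and 5 fell, and 2 of these calls were held. Atf6, a sensor that becomes a transcription factor, read 257, 257 and 282 with siC and 161, 181 and 149.6 with siLsd1 (1.62-fold lower, log2 -0.70 ± 0.10 SE, adjusted p = 0.00467), although its 2 other probe sets gave log2 changes of 0.70 and -0.13. Manf, a secreted chaperone, read 1572, 1623 and 1508 against 1179, 1145 and 1054 (1.39-fold lower, adjusted p = 0.00787). Calr, calreticulin, read 3381, 3954 and 3809 against 2822, 2663 and 1423, lowest on replicate 3, and its call was lost without any 1 siC 48 h or 24 h array, adjusted p up to 0.137. Hspa5, the main chaperone of the compartment, had a log2 change of 0.08 (adjusted p = 0.594). Without siC 48 h replicate 2 the count was 2.

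**Figure D3:**
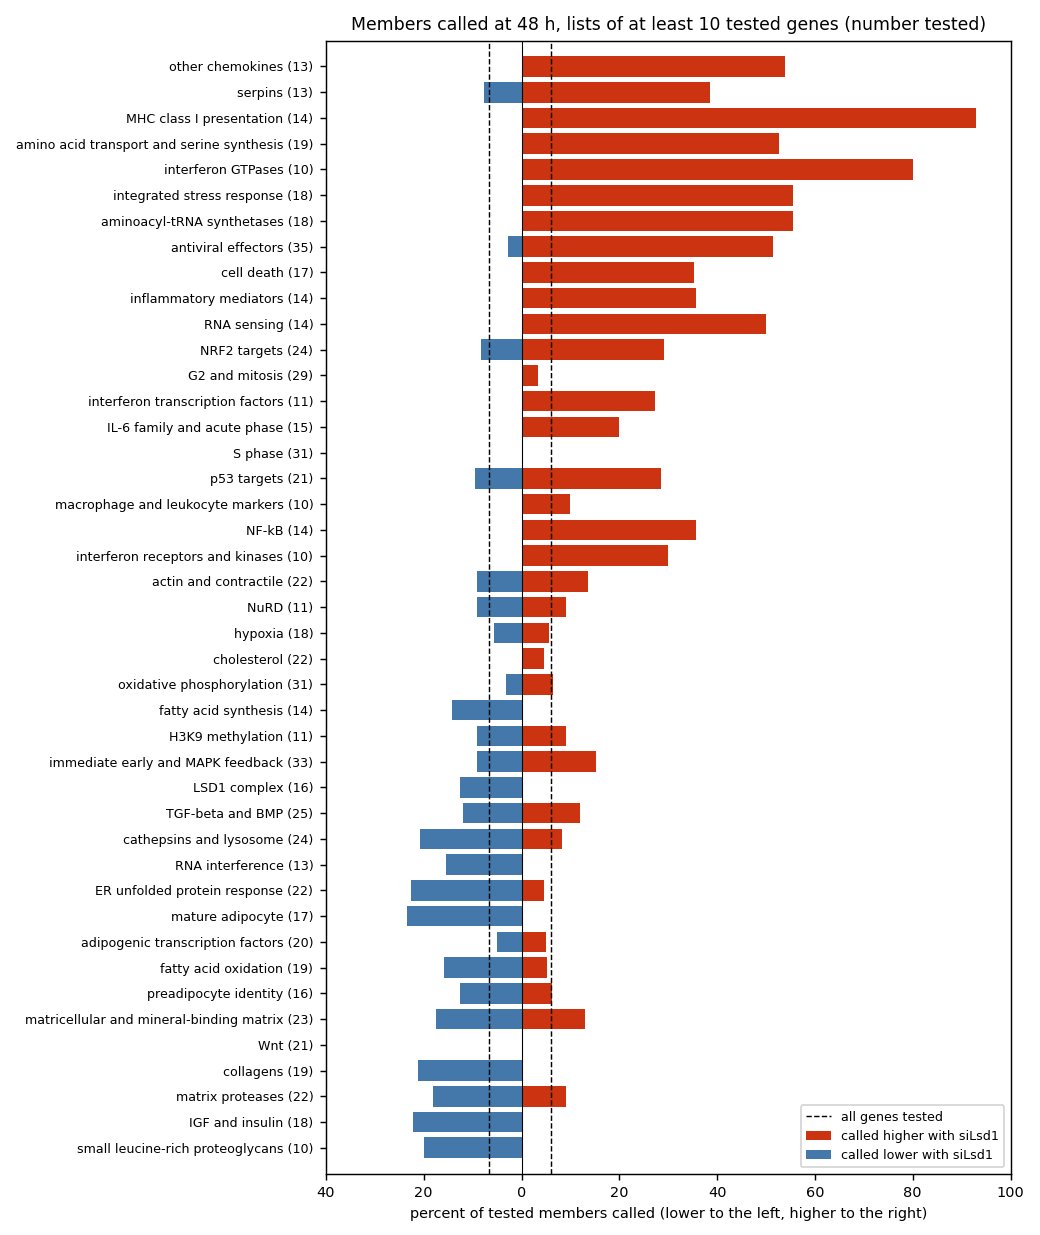
Percent of the tested members called, for the 43 gene lists with 10 or more tested members, lower (blue, to the left) and higher (red, to the right) with siLsd1 at 48 h, ordered by the median log2 change of the list, with dashed lines at 6.00% and 6.67% for all genes tested. MHC class I presentation, with 13 of 14 members higher, and interferon GTPases, with 8 of 10, have the longest red bars among these lists.

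Nrf2 answers electrophiles and oxidants. Of its 24 (of 28 listed, median 0.28) tested targets, 7 rose and 2 fell, with 0 held calls and a count of 1 without siC 48 h replicate 2. Hmox1, which breaks down haem, read 1472, 1490.2 and 1313 with siC and 2732, 2739.7 and 6081 with siLsd1 (2.51-fold, log2 1.33 ± 0.25 SE, adjusted p = 0.0132; lost without siC 48 h replicate 3, adjusted p 0.0509). Gclm, of glutathione synthesis, was 1.82-fold higher and its call was lost without any 1 siC 48 h or siLsd1 24 h array, adjusted p up to 0.0993. The p53 targets had 6 of 21 (of 25 listed, median 0.12) tested members higher and 2 lower, with 0 held calls and 0 called without siC 48 h replicate 1. Gadd45a, a gene of growth arrest that Atf4 also raises, read 655, 713 and 679 against 1169.5, 1055 and 3195, its 2.32-fold rise (adjusted p = 0.0402) being largest on replicate 3 (log2 0.70 without it, lost without any 1 siC 48 h or 24 h array, adjusted p up to 0.108).

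Early-response and MAPK feedback genes, which growth factors switch on within minutes to hours, had 5 higher and 3 lower of 33 (of 35 listed, median -0.05) tested, with 1 held call and a count of 1 without siC 48 h replicate 2. Map2k6, a kinase that activates p38, had the held call: it read 244, 190.4 and 196 with siC and 116, 102 and 64.3 with siLsd1 (2.29-fold lower, log2 -1.20 ± 0.20 SE, adjusted p = 0.00787). Myc, the growth regulator, read 267, 294 and 288 against 459, 449.6 and 995; the 2.08-fold rise (adjusted p = 0.0274) was 0.68 on the log2 scale without replicate 3. Egr3, a zinc finger factor of this class, was 1.94-fold lower (adjusted p = 0.0292; another probe set had log2 0.15). The call of Myc was lost without any 1 siC 48 h or siLsd1 24 h array, adjusted p up to 0.0861, and that of Egr3 was lost without any 1 siC 48 h or siC 24 h array, adjusted p up to 0.101.

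Few cell cycle genes were called. Of 29 (of 30 listed, median 0.24) tested genes of G2 and mitosis, 1 rose and 0 fell at 48 h (6.00% and 6.67% over all genes). Their medians on siLsd1 replicates 1, 2 and 3 were 0.13, -0.09 and 0.72. At 24 h 0 rose and 7 fell. Tpx2, which builds the spindle, was the gene called. It read 97.4, 111 and 103 with siC and 141, 132 and 183 with siLsd1 (1.45-fold, log2 0.53 ± 0.13 SE, adjusted p = 0.0288). The call was lost without any 1 siC 48 h or 24 h array, adjusted p up to 0.0867. By its other probe set above the dim level Tpx2 read 83.4, 98.8 and 110 against 112, 102 and 100 (log2 0.11), ranges that overlapped. Of 31 (of 33 listed, median 0.13) tested genes of S phase, 0 were called by limma after adjustment, 6 had an unadjusted p under 0.05, and the medians on the 3 arrays were -0.01, -0.08 and 0.45. Mcm3, a subunit of the replicative helicase, read 91.8, 101 and 101 against 128, 119 and 194 (adjusted p = 0.0623). On both lists replicate 3 had the highest median.

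**Figure D4:**
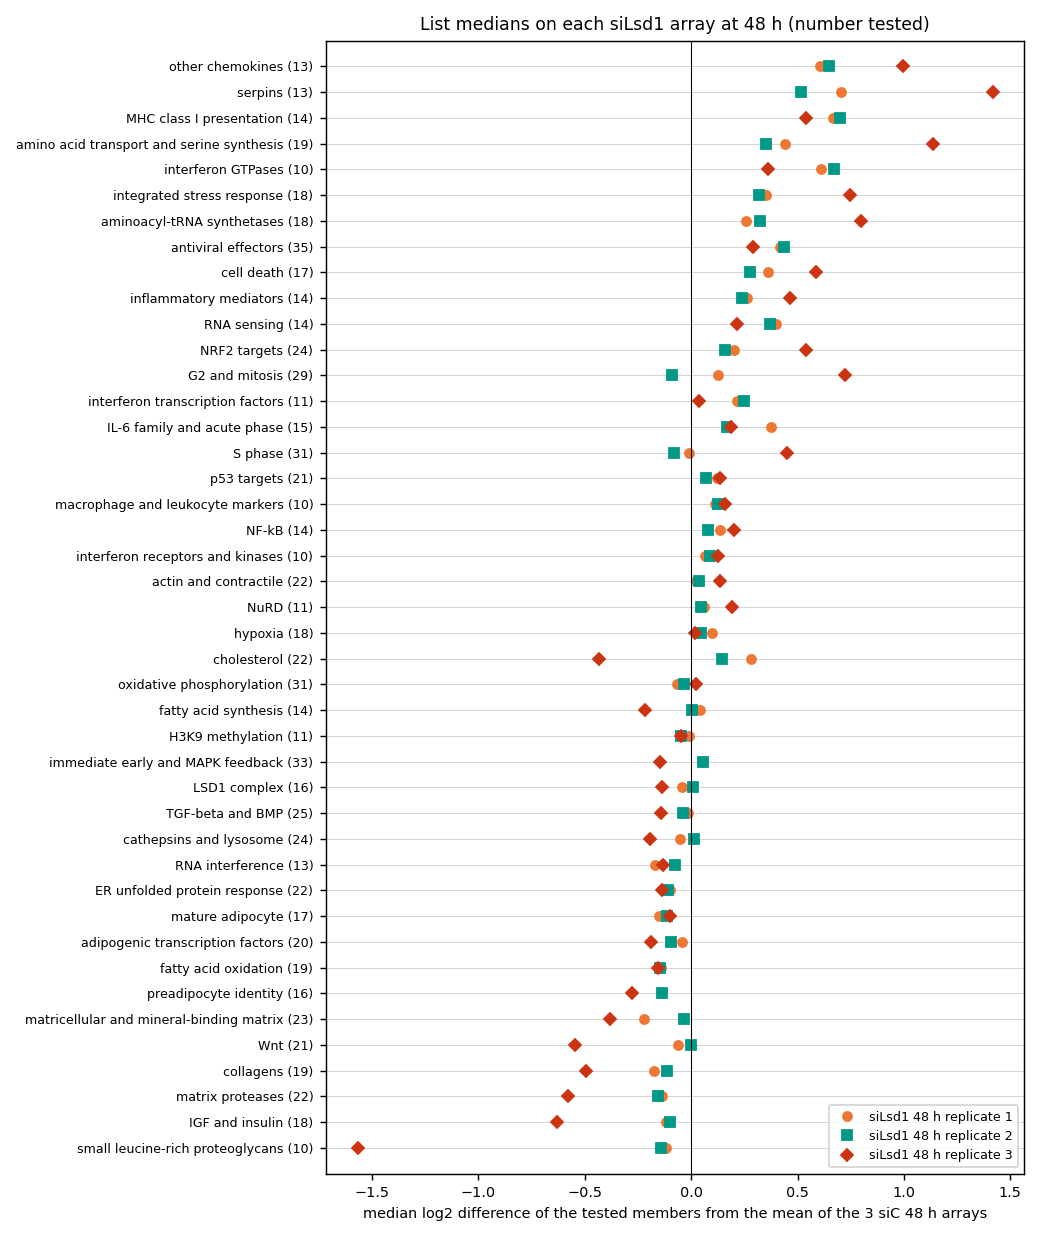
Median log2 difference of the tested members of the 43 lists with 10 or more of them from the mean of the 3 siC arrays at 48 h (horizontal axis), for siLsd1 replicate 1 (circles), 2 (squares) and 3 (diamonds). Replicate 3 lies to the right of the others for serpins and for amino acid transport and serine synthesis and to the left for small leucine-rich proteoglycans, while it lies to the left of the others, nearer to 0, for interferon GTPases and antiviral effectors.

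The extracellular matrix is the main product of fibroblasts. Of 19 (of 22 listed, median -0.27) collagens tested, 0 rose and 4 fell (6.00% and 6.67% over all genes), with 0 held calls and 0 called without siC 48 h replicate 1. Col8a1, a short-chain collagen, read 674, 702 and 770.2 with siC and 412, 390.5 and 144 with siLsd1 (2.51-fold lower, log2 -1.33 ± 0.32 SE, adjusted p = 0.0303). Its call was lost without any 1 siC 48 h or 24 h array, adjusted p up to 0.0932, and the log2 change without replicate 3 was -0.83. The other 3 were the chains of type VI collagen, the beaded filament around cells. Col6a3 read 6221, 5588 and 5839 against 4304, 4432 and 2179 (1.7-fold lower), Col6a1 was 1.42-fold and Col6a2 1.36-fold lower, with adjusted p-values of 0.0481, 0.047 and 0.012. The call of Col6a1 was lost without any 1 siC 48 h or 24 h array, adjusted p up to 0.133, that of Col6a3 up to 0.127 without the same arrays, and that of Col6a2 was lost without siC 48 h replicate 1, adjusted p 0.0513. Col1a1, of the main fibrillar collagen, read 5489, 5096 and 4669 against 4344, 4519 and 2143 (adjusted p = 0.136), while Col1a2 had a log2 change of -0.05.

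Small leucine-rich proteoglycans, which space collagen fibrils, had 0 higher and 2 lower of 10 (of 11 listed, median -0.58) tested (6.00% and 6.67% over all genes). Their medians on siLsd1 replicates 1, 2 and 3 were -0.12, -0.14 and -1.57, and the median of the change was -0.12 without replicate 3. Lum, lumican, read 49.5, 124 and 113 with siC and 28.2, 27.6 and 23.6 with siLsd1 (3.36-fold lower, log2 -1.75 ± 0.31 SE, adjusted p = 0.0102), and here the 3 siLsd1 arrays were close and the siC arrays were not; the call was held. Bgn, biglycan, was 1.13-fold lower (adjusted p = 0.0397, lost without any 1 siC 48 h or 24 h array, or siLsd1 48 h replicate 2, adjusted p up to 0.105). Dcn, decorin, read 2889, 2758 and 2321 against 2264, 2397 and 1015 (adjusted p = 0.176).

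Among 23 (of 29 listed, median -0.19) tested matricellular and mineral-binding proteins, 3 rose and 4 fell, with 1 held call and a count of 1 without siC 48 h replicate 2. Mgp, an inhibitor of calcification, read 862, 726 and 686 with siC and 337, 316 and 115 with siLsd1 (3.27-fold lower, log2 -1.71 ± 0.33 SE, adjusted p = 0.0147; lost without siC 48 h replicates 1 or 2, adjusted p up to 0.0595). Sned1, a matrix glycoprotein, read 3339, 3114 and 3165 against 1468, 1665 and 374 (3.3-fold lower, adjusted p = 0.0338, lost without any 1 siC 48 h or 24 h array, adjusted p up to 0.1). Vcan, the large proteoglycan versican, had the held call: it read 2147, 2143 and 2204 against 1482, 1507 and 1607, with all 3 siLsd1 arrays close together (1.41-fold lower, log2 -0.50 ± 0.06 SE, adjusted p = 0.00146); its 4 further probe sets above the dim level had log2 changes of -0.58, -0.61, -0.27 and -0.36. Ccn2, a matricellular target of TGF-beta and YAP, read 45.1, 38.5 and 55.4 against 95.1, 70.4 and 140.0 (2.14-fold higher, adjusted p = 0.0187, lost without siC 48 h replicates 1 or 2, adjusted p up to 0.0813).

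Of 22 (of 26 listed, median -0.28) tested proteases of the matrix and their inhibitors, 2 rose and 4 fell, 1 held in each direction, and the count was 2 without siC 48 h replicate 1. Mmp13, a collagenase, read 81.4, 128 and 122 with siC and 329, 317 and 692 with siLsd1 (3.84-fold higher, log2 1.94 ± 0.28 SE, adjusted p = 0.00456), with a held call. Adamts12, a protease of cartilage matrix proteins, read 981, 949.9 and 1008 against 341, 351 and 69, the largest called fall (4.85-fold, log2 -2.28 ± 0.50 SE, adjusted p = 0.0219). Its log2 change was -1.50 without replicate 3, and the call was lost without any 1 siC 48 h array, adjusted p up to 0.0769. P3h3, a collagen hydroxylase of the endoplasmic reticulum, read 281, 253 and 249 against 139.6, 158 and 148 (1.76-fold lower, adjusted p = 0.0015, held).

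Genes of TGF-beta and BMP signalling were called in both directions, 3 higher and 3 lower of 25 (of 30 listed, median -0.07) tested. These were 12.0% each, against 6.00% and 6.67% over all genes, with 0 held calls and 0 called without siC 48 h replicate 1. By their brightest probe sets Smad2 was called higher (log2 0.53) and Smad3 lower (log2 -0.32). Their other probe sets above the dim level went the other way, with log2 -0.40 for Smad2 and 0.22 for Smad3. Inhba, the activin A subunit, was 1.37-fold higher (adjusted p = 0.0151, lost without siC 48 h replicates 1 or 3, adjusted p up to 0.0579). Another, much dimmer probe set of Inhba had log2 -0.12. Bmp1, the procollagen C-proteinase, was 1.8-fold lower (adjusted p = 0.0267), and its other probe set above the dim level had log2 -0.62. The call of Bmp1 was lost with 5 of the 10 arrays left out in turn, adjusted p up to 0.0953. Among these were each siC 48 h array and siLsd1 24 h replicate 1. Wnt genes had 0 of 21 (of 26 listed, median -0.19) tested members called by limma (12.7% over all genes), and 6 had an unadjusted p under 0.05. Tcf7l1, a repressor at Wnt targets, read 1931, 2083 and 1959.8 with siC and 1549, 1408 and 610.4 with siLsd1 (adjusted p = 0.0674). Insulin and IGF genes had 0 higher and 4 lower of 18 (of 19 listed, median -0.36) tested (6.00% and 6.67% over all genes), with 0 held calls and 0 called without siC 48 h replicate 2. Igf1, the growth factor, read 56.2, 65.6 and 65.1 against 37, 32.7 and 20.03 (2.15-fold lower, log2 -1.10 ± 0.22 SE, adjusted p = 0.0162; lost without siC 48 h replicates 2 or 3, adjusted p up to 0.0714), and its 3 other probe sets were lower too. Foxo3, a factor restrained by insulin, was 1.31-fold lower by its brightest probe set (lost without any 1 siC 48 h or 24 h array, adjusted p up to 0.101), but the mean of its probe sets turned the direction (log2 0.04, adjusted p = 0.904). Of the 2 further Foxo3 probe sets, one with readings of 581 to 871 had log2 -0.29 and one with readings of 12.7 to 49.8 had log2 0.79.

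Hypoxia genes had 1 higher and 1 lower of 18 (of 19 listed, median 0.03) tested, the latter with a held call. These were 5.56% each, against 6.00% and 6.67% over all genes. Epas1, which encodes HIF-2 alpha, read 285, 273 and 296 with siC and 132, 124 and 54.6 with siLsd1 (2.95-fold lower, log2 -1.56 ± 0.27 SE, adjusted p = 0.00952), with a held call. Mertk, a receptor by which cells take up dying cells, read 213, 197 and 179 against 81.7, 95 and 31.1 (3.15-fold lower, adjusted p = 0.0184; lost without any 1 siC 48 h array, adjusted p up to 0.0719). Axl, a receptor of the same family, was 1.31-fold higher with a held call, and their ligand Gas6 1.25-fold lower (adjusted p = 0.0467, lost without any 1 siC 48 h or 24 h array, adjusted p up to 0.127).

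Fat cell genes were tested because the line is a preadipocyte model. Of 17 (of 25 listed, median -0.12) tested genes of mature fat cells, 0 rose and 4 fell, with 1 held call and a count of 1 without siC 48 h replicate 2. Fabp4, a fatty acid carrier, read 4539, 5305 and 5333 with siC and 3008, 2771 and 1384 with siLsd1 (2.23-fold lower, log2 -1.16 ± 0.24 SE, adjusted p = 0.0183; lost without any 1 siC 48 h array, adjusted p up to 0.0738), and its 3 other probe sets were lower too. Plin4, a coat protein of fat droplets, read 899.9, 887 and 897 against 605, 684 and 508 (1.5-fold lower, adjusted p = 0.0102, held). Agt, angiotensinogen, read 654, 665 and 548 against 303, 331 and 85.4 (3.03-fold lower, adjusted p = 0.0344, lost without any 1 siC 48 h or 24 h array, adjusted p up to 0.11). Among 20 (of 21 listed, median -0.14) tested factors of adipogenesis, 1 rose and 1 fell (5.0% each, against 6.00% and 6.67% over all genes). Without siC 48 h replicate 1, 0 were called. Cebpb, an early factor that also belongs to the stress response list, read 2500.1, 2923 and 3003 against 3568, 3553 and 4634 (1.39-fold higher, adjusted p = 0.0263, lost without any 1 siC 48 h array, adjusted p up to 0.0853). Pparg, the master factor, read 902, 885 and 872 against 762, 758 and 796, groups that did not overlap but with an adjusted p of 0.0692 (37.5% of all genes had groups that did not overlap). Cebpa, its partner, read 181, 165 and 179.6 against 135, 129 and 81 (log2 -0.64, adjusted p = 0.0506).

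Preadipocyte genes had 1 higher and 2 lower of 16 (of 19 listed, median -0.17) tested, and the count was 1 without siC 48 h replicate 2. These were 6.25% and 12.5%, against 6.00% and 6.67% over all genes. Thy1, a surface marker of mesenchymal cells, read 1109, 1013 and 1029 with siC and 678, 616 and 494 with siLsd1 (1.78-fold lower, log2 -0.83 ± 0.12 SE, adjusted p = 0.00412), with a held call. Dlk1, which restrains adipogenesis, read 4892, 4739 and 4252 against 3974, 4229 and 3868 by its brightest probe set (adjusted p = 0.0945). By its other probe set Dlk1 read 365, 395 and 437 with siC and 173, 187 and 73.6 with siLsd1 (log2 -1.58, adjusted p = 0.0238 over all probe sets). Ddit3, which encodes CHOP and sits on this list as a restraint of adipogenesis, was 1.41-fold higher by its brightest probe set (adjusted p = 0.0139, lost without siC 48 h replicates 2 or 3, adjusted p up to 0.0654), while the mean of its probe sets turned the direction (log2 -0.10, adjusted p = 0.863). Gata2 had a log2 change of 0.14 (adjusted p = 0.474), and Wnt10b was among the dim genes.

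Lists of metabolism are read against the 12.7% of all genes called. Fatty acid oxidation had 1 higher and 3 lower of 19 (of 23 listed, median -0.15) tested: Acadm, Hadh and Acaa2, enzymes of the mitochondrial cycle, were 1.57, 1.37 and 1.34-fold lower, and 0 of the calls were held (0 called without siC 48 h replicate 2). Hadh read 3698, 3711 and 3674 with siC and 2829, 2977 and 2332 with siLsd1 (adjusted p = 0.0118). Genes that LSD1 has been tied to in energy use had log2 changes of -0.29 (Ppargc1a), -0.01 (Pdk4), 0.09 (Slc27a1) and 0.38 (Pnpla2), with adjusted p-values of 0.342, 0.948, 0.695 and 0.0628. Fatty acid synthesis had 0 higher and 2 lower of 14 (of 15 listed, median -0.04) tested, oxidative phosphorylation 2 higher and 1 lower of 31 (of 33 listed, median -0.03), and cholesterol synthesis 1 higher and 0 lower of 22 (of 26 listed, median 0.00). With single arrays left out the count was 0 to 3 for fatty acid synthesis and 0 to 6 for oxidative phosphorylation, highest without siLsd1 48 h replicate 3 in both, and it moved by over 1.5 times with 8 of the 10 arrays in each. The cholesterol list had medians of 0.28, 0.15 and -0.43 on siLsd1 replicates 1, 2 and 3, so that replicate 3 lay on the other side of siC, and without it 6 members were higher and 1 lower. Sc5d, an enzyme of the late steps of that pathway, read 188, 222 and 230.4 against 316, 329 and 344 (1.55-fold higher, adjusted p = 0.00572, held; its other probe set above the dim level had log2 -0.21).

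Lysosomal genes had 2 higher and 5 lower of 24 (of 26 listed, median -0.08) tested, with 3 held calls and a count of 3 without siC 48 h replicate 2. Ctss, a cathepsin of antigen processing that interferon induces, read 25.4, 25.7 and 35 with siC and 91.9, 87 and 49.8 with siLsd1 (2.59-fold higher, log2 1.38 ± 0.24 SE, adjusted p = 0.00963), lower on replicate 3 than on the other siLsd1 arrays. Gusb, beta-glucuronidase, read 586, 603 and 642 against 417, 416 and 391 by its brightest probe set (1.5-fold lower, adjusted p = 0.00406). By its other probe set, also above the dim level, Gusb had a log2 change of -0.08, and the groups overlapped. Actin and contractile genes had 3 higher and 2 lower of 22 (of 24 listed, median 0.05) tested. Without siC 48 h replicate 1 the count was 1. Of these, Myh10, a non-muscle myosin, was 1.59-fold lower with a held call by its brightest probe set and log2 0.19 by the mean of its probe sets, and Acta2, smooth muscle actin, was 1.25-fold higher by the brightest (lost without any 1 siC 48 h or 24 h array, adjusted p up to 0.116) and log2 -0.06 by the mean. The further probe sets of Myh10 and Acta2 that enter these means were under the dim level. Genes of RNA interference had 0 higher and 2 lower of 13 (of 13 listed, median -0.09) tested, Prkra (1.48-fold) and Dicer1 (1.26-fold), with 0 held calls. That of Prkra was lost without any 1 siC 48 h or 24 h array, adjusted p up to 0.105, and that of Dicer1, whose other probe set had log2 0.27, was lost without any 1 siC 48 h or 24 h array, or siLsd1 48 h replicate 1, adjusted p up to 0.121.

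Several of the genes with the smallest p-values or the largest changes belonged to no list. Cd274 encodes PD-L1, the ligand that restrains T cells. It read 318, 296 and 345 with siC and 909.6, 939.9 and 1119 with siLsd1 (3.09-fold higher, log2 1.63 ± 0.10 SE, adjusted p = 5.33e-05). Ms4a4d read 350.1, 346 and 407 against 1212, 1184 and 1252 (3.31-fold higher, adjusted p = 5.34e-05). Ifi209, of the interferon-induced p200 family, read 13.3, 19.3 and 20.6 against 83.3, 72.2 and 196 (6.07-fold higher, and 5.45-fold with readings under the dim level raised to it). Mlana, known as a pigment cell antigen, read 14.9, 22.9 and 17.8 against 78.9, 91 and 89.7 (4.73-fold higher, adjusted p = 0.000187; 4.36-fold with the raised level), and Hdc, which makes histamine, rose 4.87-fold from readings under the dim level and 1.57-fold with those raised to it. These calls were held.

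Among the falls with the smallest p-values, Pdpn, the membrane glycoprotein podoplanin, read 613, 604 and 606 with siC and 379, 377 and 362 with siLsd1 (1.63-fold lower, log2 -0.71 ± 0.07 SE, adjusted p = 0.000713). Hs6st2, which adds sulphate to heparan sulphate, read 1094, 1101 and 1113 against 738, 708 and 713 (1.53-fold lower, adjusted p = 0.000688; its other probe set above the dim level had log2 -0.68). In Pdpn and Hs6st2 all 3 siLsd1 arrays lay together, well below siC. Erp29, a protein of the endoplasmic reticulum, read 1275, 1244 and 1188 against 689.6, 679.7 and 502 (2-fold lower), and Tpst1, which sulphates tyrosines of secreted proteins, read 1805, 1864 and 1803 against 1099.9, 1154 and 850.3 (1.78-fold lower). Sh2b1, an adaptor of insulin and leptin receptors, was 1.54-fold lower. The calls of these 5 genes were held. Sult1a1, a sulphotransferase, read 138, 131 and 113 against 45.2, 51.2 and 21.7 (3.44-fold lower, adjusted p = 0.00905), also held. Tbx6, a T-box factor, read 122, 134 and 115 against 45.4, 61.7 and 24.6 (3.02-fold lower, adjusted p = 0.0174, lost without any 1 siC 48 h array, adjusted p up to 0.0753), and its log2 change at 24 h was 0.04.

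Markers of the labelled cell and of others were read on the same arrays. The summed intensity of the 9 preadipocyte or fibroblast markers with a probe set lay between 50310.4 and 52043 on the siC arrays and between 36868 and 47915 on the siLsd1 arrays, and Thy1 and Lum were the 2 called lower. Pdgfra, a receptor that defines fibroblasts, read 6589, 6367 and 6717 with siC and 5757, 5909 and 1865 with siLsd1 (adjusted p = 0.191). All 3 siLsd1 readings lay below those of siC, that of replicate 3 by far the lowest. Fewer cells of a kind and less RNA per cell cannot be told apart in bulk samples. Of 11 macrophage or leukocyte markers with a probe set, 2 were dim, Ptprc among them, and 0 were called; their sum was 960.5 to 988 with siC and 862 to 1026 with siLsd1. On another list of 10 (of 15 listed, median 0.11) tested such genes, Mpeg1, a pore-forming protein of macrophages that interferon also induces, was the member called. It read 73.5, 76.4 and 87.3 against 569.7, 579 and 271 (5.67-fold higher, log2 2.50 ± 0.26 SE, adjusted p = 0.000713), lowest of the siLsd1 arrays on replicate 3, with a held call. The 5 mature adipocyte markers with a probe set summed to 113.8 to 172.4 with siC and 103.9 to 111.6 with siLsd1, with 3 of them dim. Of the endothelial, muscle and epithelial markers, Des, a muscle filament, was called (1.42-fold higher by its brightest probe set, log2 -0.21 by the mean with a further probe set under the dim level, and lost without any 1 siC 48 h or 24 h array, or siLsd1 48 h replicates 1 or 2, adjusted p up to 0.123).

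Whether the changes at 48 h differed from those at 24 h was tested as the difference of the siLsd1 changes. By limma 0 of 13644 genes passed (0%), while 896 had an unadjusted p under 0.05; limma with array weights called 434, with 16 added to each intensity 3, with no intensity trend 1. Time and passage went together and cannot be told apart. Ccl4, a chemokine, had the smallest p: it read 13.4 and 10.2 with siC and 145 and 125 with siLsd1 at 24 h. At 48 h Ccl4 read 15.3, 13.1 and 15.1 against 23.9, 24.1 and 28.8, and its call there was lost without any 1 siC 48 h or siLsd1 24 h array, or siLsd1 48 h replicate 3, adjusted p up to 0.105, and with dim readings raised (adjusted p = 0.0658). The difference of its log2 changes was -2.71 (adjusted p = 0.112). Several interferon genes read higher on the siC arrays at 24 h than on those at 48 h. Mlkl read 1471 and 1404 with siC and 2514 and 2389 with siLsd1 at 24 h, higher in both groups than at 48 h (difference 0.63, adjusted p = 0.441). Cxcl10 read 3465 and 3764 with siC and 7613 and 7022 with siLsd1 at 24 h (difference 1.32, adjusted p = 0.441). Nlrc5 read 580.0 and 660.0 with siC and 931 and 831 with siLsd1 (difference 0.91). Syne3, a nuclear envelope protein, read 205 and 192 with siC and 149 and 170.2 with siLsd1 at 24 h. At 48 h Syne3 read 92.4, 105 and 109 with siC and 158, 158 and 171 with siLsd1 (difference 0.98, adjusted p = 0.441).

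Without siLsd1 48 h replicate 3, the same test called 201 genes (1.47%), 147 with a change more positive at 48 h (1.08%) and 54 with one more negative (0.396%). Among these were 10 of the 29 tested genes of G2 and mitosis, all more positive at 48 h, with log2 changes at 24 h between -1.80 (Cenpf) and -0.31 (Tpx2). Nusap1, which binds spindle microtubules, had a difference of 1.18 ± 0.16 SE on the log2 scale (adjusted p = 0.0102), Cenpf, a kinetochore protein, of 1.69 (adjusted p = 0.031) and Tpx2 of 0.70 (adjusted p = 0.0334). Transport and serine synthesis had 5 of 19 more positive and 0 more negative, antiviral effectors 4 of 35 and 0, RNA sensing 3 of 14 and 0, and the integrated stress response 3 of 18 and 0. Of the 18 aminoacyl-tRNA synthetases, 0 differed in either direction. Other chemokines had 0 of 13 more positive and 5 more negative, serpins 0 of 13 and 3, and early-response genes 1 of 33 and 4. Ccl5 had a difference of -1.65 ± 0.17 SE (adjusted p = 0.00342) and Serpinb1a of -1.18 (adjusted p = 0.00535). With replicate 3 in place these differences were not called.

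**Figure D5:**
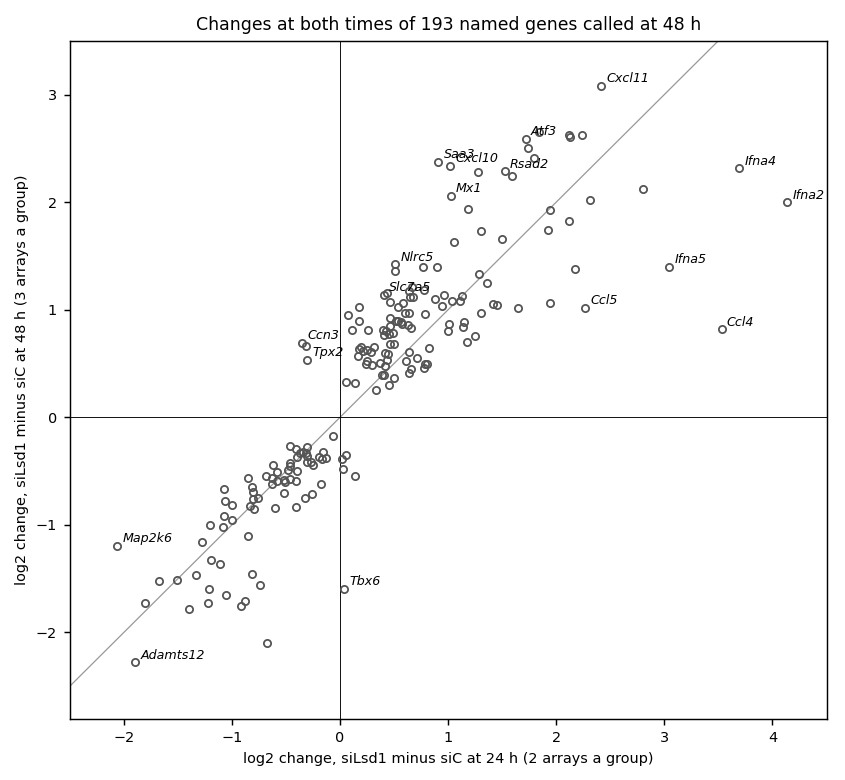
Log2 change of siLsd1 against siC at 24 h (horizontal axis, 2 arrays a group) and at 48 h (vertical axis, 3 arrays a group) for the 193 named genes called at 48 h, with a diagonal of equal change. Ccl4, Ifna2, Ifna4, Ifna5 and Ccl5 lie to the right of the diagonal, with a larger rise at 24 h, Atf3, Cxcl10, Mx1 and Nlrc5 above it, and Tbx6 fell at 48 h with a log2 change of 0.04 at 24 h.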

How the data were processed

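Total RNA was labelled with biotin for Affymetrix mouse arrays, per the labels' protocols. The authors deposited 1 linear intensity per probe set and array for 45037 probe sets; the steps of summarisation and normalization are not given in the sources used for this work, and precision is limited by the number of arrays. Groups came from the siRNA and time in the sample titles. Of the probe sets, 34945 had 1 gene symbol in the platform annotation, 932 several and 9160 none, and those without exactly 1 were left out. By Entrez ID 34741 matched RefSeq, which changed 0 symbols. Each gene was represented by its brightest probe set over the 10 arrays, and the dimmest 25% of genes (mean up to 18.4) were left out. Log2 intensities, with nothing added, were fitted with limma 3.58.1 in R 4.3.3, with 1 mean for each of the 4 groups, 6 residual degrees of freedom, an intensity trend in eBayes and Benjamini-Hochberg adjustment over 13644 genes. Scripts were tested on simulated data, with independent noise of the same spread on every array for a gene. No simulated array stood apart as siLsd1 48 h replicate 3 does, so error rates in that setting were not tested. Medians of lists are of log2 changes.

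Named were Kdm1a, the 15 largest rises and falls among called genes whose groups did not overlap, the 10 with the smallest p in each direction, up to 5 called members of each list, genes with the smallest p for the difference between times, those that differed most on replicate 3, and genes known from work on LSD1, fat cells and interferon. Not all of them are described. Ifi27, Ifitm3, Adar, B2m, Ripk3, Fas, Atf4, Asns, Hspa5, Col1a1, Col1a2 and Dcn were added after their values were seen. Members and lists were chosen with earlier results of these data known. The alternatives were another choice of probe set, filter, scaling, added constant, trend, weights, samples or block, and each array left out in turn.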

Additional observations from a re-analysis of the deposited data

How the results depend on the processing

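The count of 1728 genes at 48 h was 948 with the mean of the probe sets of a gene, 1006 with no intensity trend, 4922 with array weights, 250 with the 48 h arrays alone and 382 to 2473 with 1 array left out. It stayed within 1.5 times with the other filters, scalings and added constants. The log2 change of Kdm1a was -0.55 in each of those fits that lost its call, with no intensity trend (adjusted p = 0.0649) and with the 48 h arrays alone (adjusted p = 0.104); with 1 array left out it was -0.65 to -0.35 (adjusted p 0.00277 to 0.115). Fits with fewer arrays have fewer degrees of freedom; the cause of the other shifts was not tested. The difference between times, with 0 genes called, had 3 with 16 added to intensities, 1 with no trend, 434 with array weights, 0 to 201 with 1 array left out, and 3 with readings under the dim level raised to it, an alternative chosen after seeing the data. With the mean of the probe sets, 5 named genes turned direction: Foxo3 to 0.037, Ddit3 to -0.10, Myh10 to 0.19, Acta2 to -0.060 and Des to -0.21 on the log2 scale.

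With the replicate number as a block, 665 genes were called and Kdm1a was -0.55 (adjusted p = 0.0664). Whether the numbers pair the samples could not be decided. Deviations of arrays with the same number at 48 h correlated at -0.226, 0.0525 and -0.104 over 6943 genes. Arrays with unlike numbers correlated at -0.134 to 0.203. Each deviation was taken from its group's mean, and siLsd1 replicate 3 lay far from replicates 1 and 2, so these values are tied to one another.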

Other observations

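The arrays were also placed between the control groups of both times, over 704 genes called and more than 2-fold different between siC at 48 h and siC at 24 h. On a scale where the mean of siC at 24 h is 0 and that of siC at 48 h is 1, the median position of the siLsd1 48 h arrays was 0.756, 0.774 and 0.458 for replicates 1, 2 and 3. The siC 48 h arrays lay at 0.979 to 1.01, and the siLsd1 24 h arrays at 0.0323 and -0.0303. Time and passage went together in this scale and cannot be told apart, and the siC arrays that define it are among those placed on it.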
